A study of Homo sapiens with 33 samples.

Results

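The D cyclins and CDK inhibitors are 10 genes that set whether a cell leaves the G1 phase of the cell cycle: the cyclins CCND1, CCND2 and CCND3, the kinases CDK4 and CDK6, and the inhibitors CDKN1A, CDKN1B, CDKN1C, CDKN2C and CDKN2D. They were chosen by name, and all 10 were found among the 62446 gene rows of the deposited count files. Their levels were read in 33 libraries of human acute lymphoblastic leukaemia (ALL) cell lines, 3 libraries in each of 11 groups. Nalm6, a B-cell precursor line, was left untreated or was given CHIR-99021 (0.5 µM), prednisolone (5 µM) or dexamethasone (100 nM), and the dexamethasone libraries have an untreated set of their own. A CRISPR/Cas9-edited Nalm6 line titled as a TLE1 knockout was left untreated or was given prednisolone (5 µM) or dexamethasone (100 nM). CEM, a T-cell line, was left untreated or was given CHIR-99021 (2 µM) or prednisolone (10 µM). Every treatment lasted 24 h. CHIR-99021 inhibits the kinase GSK3 and serves as a Wnt agonist, prednisolone and dexamethasone are glucocorticoids, and TLE1 encodes a co-repressor. The labels do not say whether the knockout line is a clone, and the treatment text in the labels exchanges the agents of the parental and knockout cells, so the titles were followed. The series text names independent experiments for the CHIR-99021 and knockout prednisolone libraries; for the other groups p-values measure the spread between libraries, which may be technical.

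In G1, a D cyclin binds CDK4 or CDK6, and the complex phosphorylates the RB protein, which frees E2F factors to switch on S phase genes. CIP/KIP proteins (p21 from CDKN1A, p27 from CDKN1B, p57 from CDKN1C) bind cyclin-CDK complexes, and INK4 proteins (p18 from CDKN2C, p19 from CDKN2D) bind CDK4 and CDK6 themselves. Glucocorticoids are known to arrest lymphoid leukaemia cells in G1 before they die, and GSK3 is known to mark D cyclins for degradation, a step that RNA levels do not show.

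Total gene counts ran from 25292579 to 61930057 per library. The summed level of 8 B-lineage markers was 1838 to 2512 CPM (counts scaled to a library total of 1000000) in Nalm6-derived libraries and 59.1 to 96.3 CPM in CEM, and that of 8 T-lineage markers was 5.06 to 14.5 CPM and 1313 to 1484 CPM. TSC22D3, a direct glucocorticoid target, stood at 1.46 to 21.6 CPM (group means) without a glucocorticoid and at 136 to 474 CPM with one. TLE1 RNA was present in the untreated knockout (24.5 ± 0.783 CPM, SD, n = 3, against 32.0 ± 1.89 CPM in untreated Nalm6), and a gene-level count does not check an edit that leaves the transcript. The untreated Nalm6 sets differed from each other in 50.2% of genes tested, and 6 of the 9 members tested were among the genes called. Dexamethasone results are therefore given against their own set. In the sample order, the Nalm6 prednisolone libraries stand with the dexamethasone and CEM libraries, apart from the untreated Nalm6 libraries used as their controls. The untreated and prednisolone libraries of the knockout stand together with those controls. A set difference may thus enter the Nalm6 prednisolone results and their differences from the knockout and CEM. It cannot be told apart from the treatment there.

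**Figure D1:**
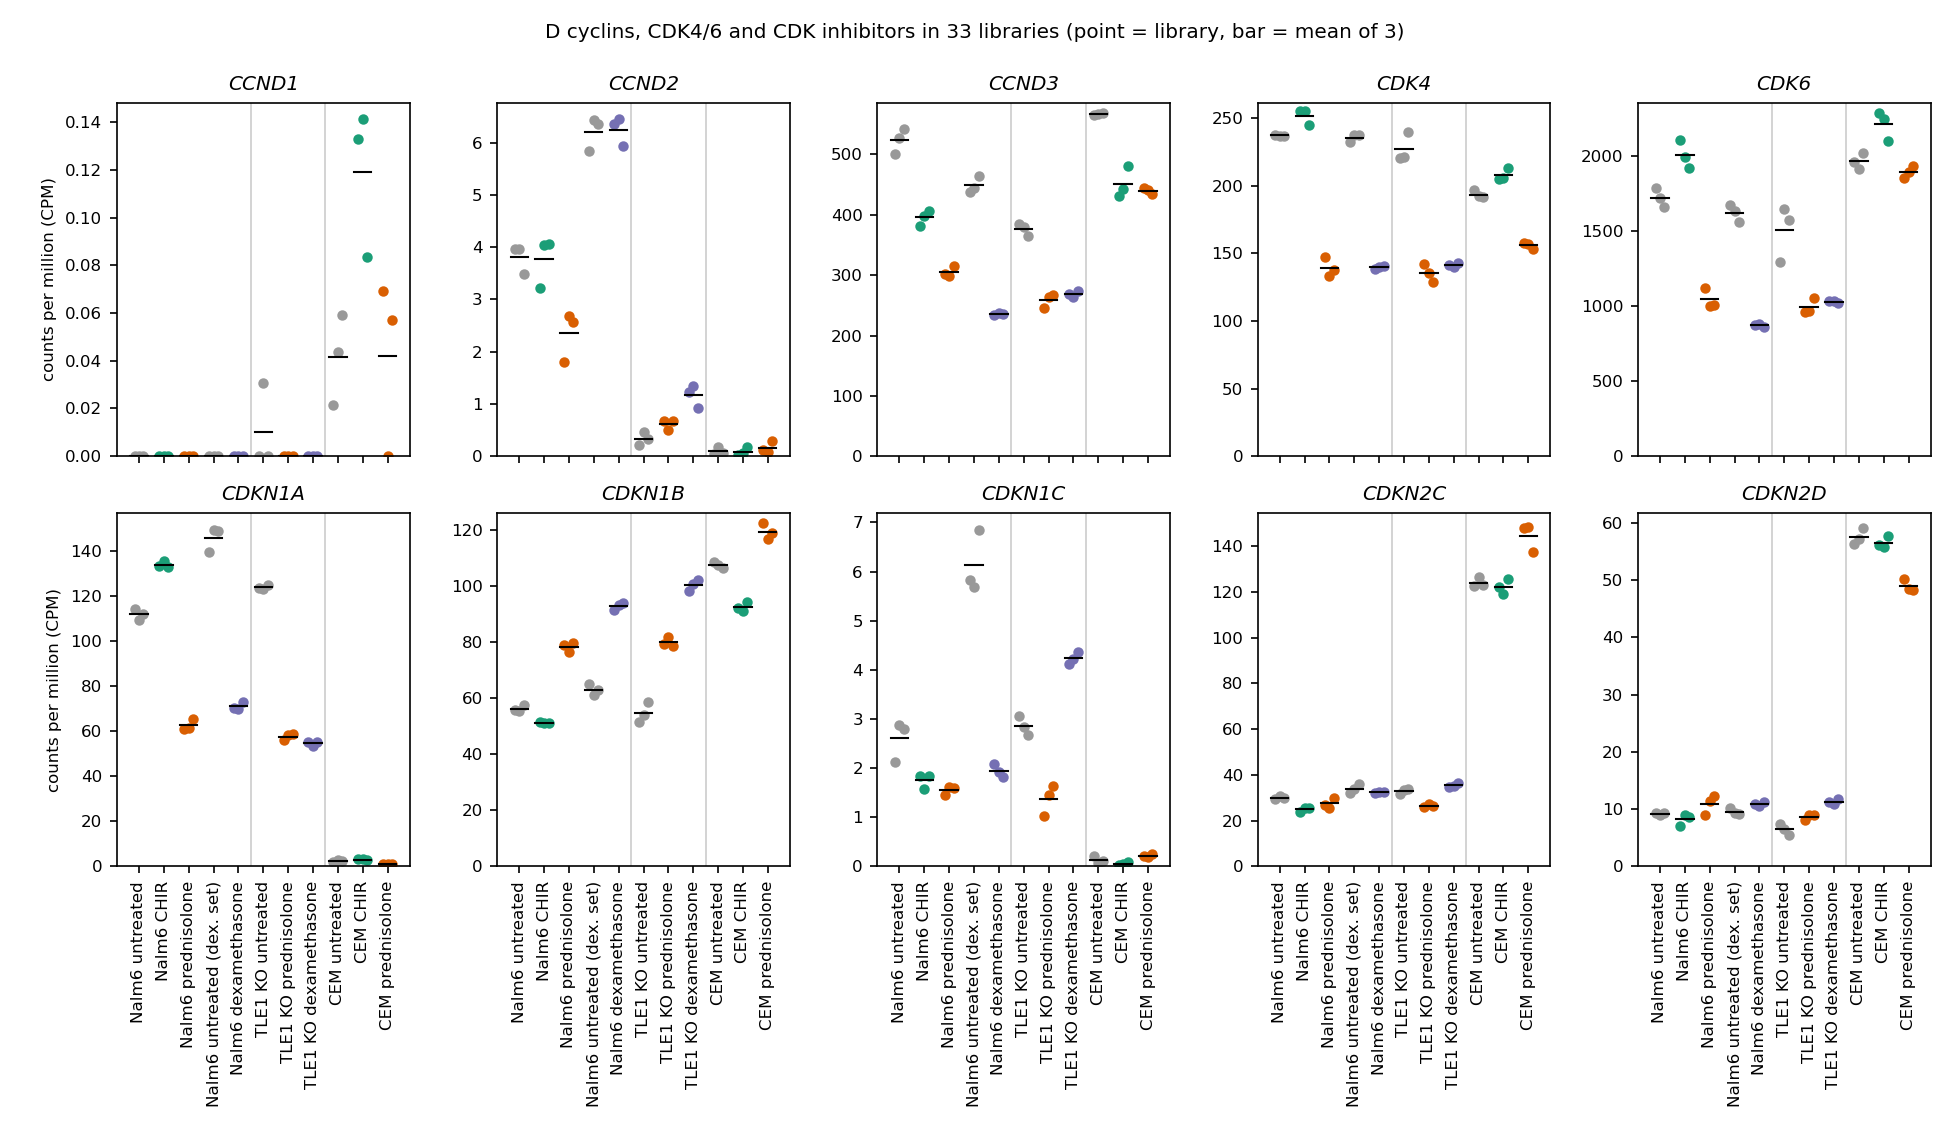
Level of each member in CPM (y axes, linear, from 0, with a scale for each gene) in the 11 groups (x axis); points are libraries and bars are means of 3. CCND3, CDK4, CDK6 and CDKN1A are lower and CDKN1B is higher under prednisolone or dexamethasone in Nalm6 and the knockout, while CDKN2C and CDKN2D stand out in CEM by line more than by treatment.

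Glucocorticoids lowered the transcripts of the D-cyclin kinases and of CDKN1A and raised CDKN1B. A gene is called here when edgeR's quasi-likelihood test gave an adjusted p under 0.05, and "rose" and "fell" are used of called genes only. Under prednisolone in Nalm6, 2 members rose and 7 fell of 9 tested, where 54.8% of all 18658 genes tested were called; the members' median log2 fold change was -0.75 and that of all genes was 0.03. Under dexamethasone 1 rose and 5 fell of 9, beside 60.5% of genes called, with medians of -0.79 and 0.02. In the knockout, prednisolone raised 2 and lowered 6 of 9, beside 41.7% of genes called, with medians of -0.58 and -0.00. In CEM it raised 2 and lowered 5 of 7, beside 45.1% of genes called, with medians of -0.26 and 0.02. These shares are the background of the members' counts. The dexamethasone count (6 of 9) lies close to it and the 3 prednisolone counts lie above it, which was not tested. The members were chosen with earlier results of these data known, so a count above the background may partly follow from that choice. CHIR-99021 called fewer genes: 5 of 9 members in Nalm6 (2 rose, 3 fell), where 7.88% of genes were called, and 4 of 7 in CEM (2 rose, 2 fell), where 10.8% were. The Nalm6 count fell to 2 without control 2 or 3 and to 3 without CHIR-99021 replicate 1 or 2, and was 7 without CHIR-99021 replicate 3. In these bulk cultures, fewer cells of a kind, such as fewer cycling cells, and less RNA in each cell cannot be told apart.

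**Figure D2:**
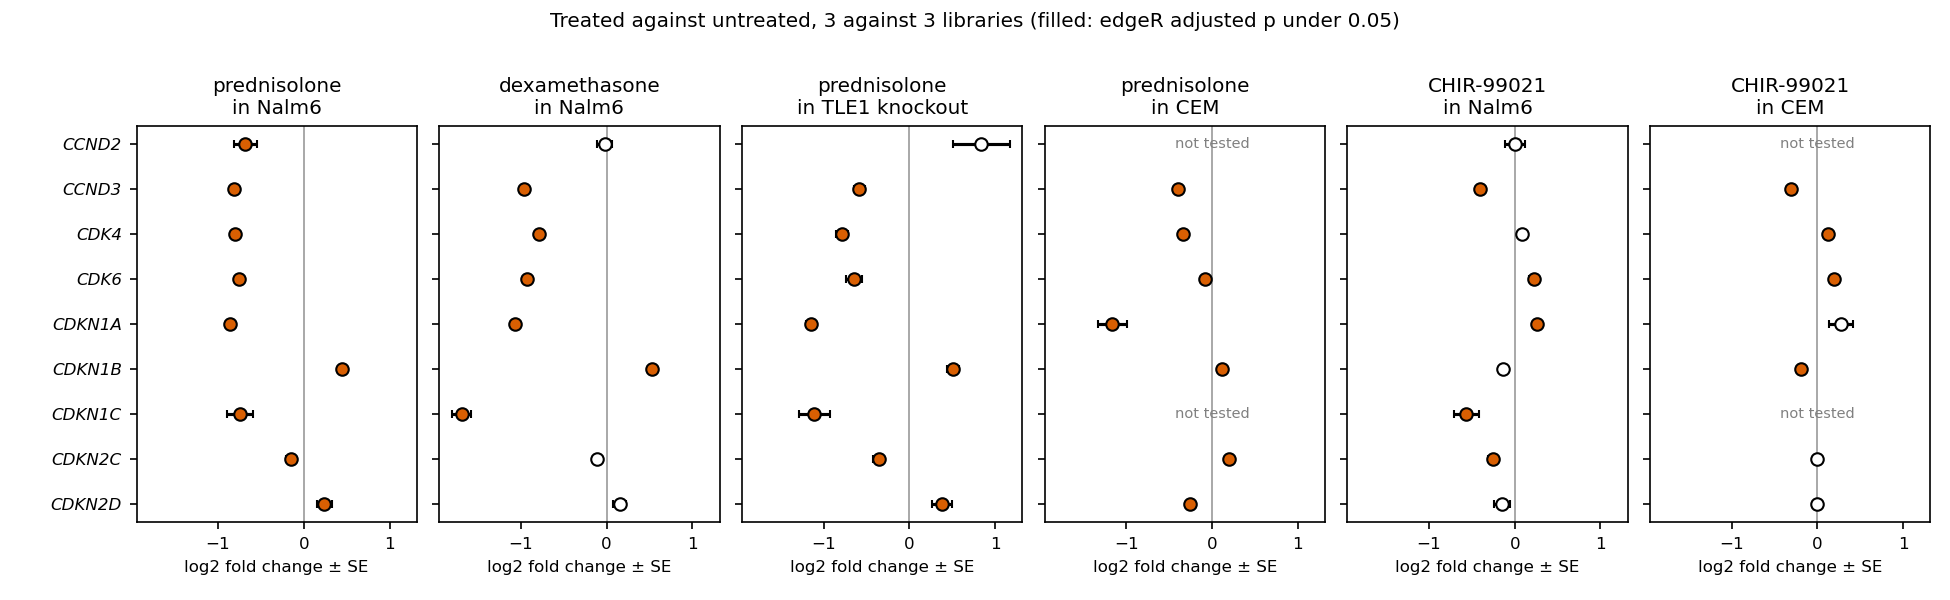
Log2 fold change ± SE (x axes) of the members (y axis, CCND1 left out because it was tested nowhere) in 6 treatment comparisons of 3 against 3 libraries; filled points have an edgeR adjusted p under 0.05. CDKN1B lies on the opposite side of 0 from CCND3, CDK4 and CDK6 in each glucocorticoid panel, and CCND3 is below 0 in all 6 panels.

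Of the D cyclins, CCND3 (ENSG00000112576.13_1) supplied nearly all of the RNA. On a scale per length (counts per kilobase of merged exons), it made up 97.9% to 99.98% of the D-cyclin transcripts in every group mean. CCND3 is the D cyclin that lymphoid progenitors depend on. In untreated Nalm6 it stood at 501, 528 and 543 CPM, and under prednisolone at 301, 299 and 315 CPM. The libraries did not overlap, and CCND3 fell by 0.81 ± 0.04 on the log2 scale (log2 fold change ± SE; edgeR adjusted p = 3.67e-11). The dexamethasone set went from 438, 445 and 464 CPM to 235, 237 and 236 CPM. That is the lowest group of the 11 for this gene, with a log2 difference of -0.96 ± 0.04 from its controls (edgeR adjusted p = 2.61e-11). Prednisolone in CEM took CCND3 from 565, 568 and 569 CPM to 445, 441 and 435 CPM, again without overlap. This fall of 0.40 ± 0.03 on the log2 scale (edgeR adjusted p = 1.59e-09) was smaller than in Nalm6, and the difference between the responses was itself called at 0.43 ± 0.06 (edgeR adjusted p = 1.85e-06), although the doses were 10 and 5 µM.

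CHIR-99021 also lowered CCND3, which made it the member that fell under both kinds of agent in both parental lines. Its levels under CHIR-99021 were 381, 399 and 407 CPM in Nalm6 and 431, 443 and 480 CPM in CEM. Every treated library lay below every untreated library of its line. On the log2 scale the difference was -0.40 ± 0.05 in Nalm6 and -0.31 ± 0.04 in CEM, with edgeR adjusted p of 0.00104 and 6.19e-04. Leaving out any library did not end the call in Nalm6. The Nalm6 comparisons with CHIR-99021 and prednisolone use the same untreated libraries, as does the untreated knockout comparison.

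CCND2 (ENSG00000118971.9_1), a D cyclin that growth factor signals induce in lymphocytes, was a minor transcript whose level followed the line and the set more than the drug. It stood at 3.97, 3.96 and 3.48 CPM in untreated Nalm6 and at 1.80, 2.68 and 2.58 CPM under prednisolone, a called fall of 0.68 ± 0.13 on the log2 scale (edgeR adjusted p = 3.21e-04). Under dexamethasone it was 6.36, 6.45 and 5.93 CPM against 5.83, 6.43 and 6.37 CPM in its own untreated set. Those groups overlapped, and the log2 fold change was -0.02 ± 0.08 (edgeR adjusted p = 0.826). The untreated Nalm6 sets themselves differed by 0.76 ± 0.09 in CCND2 (edgeR adjusted p = 2.43e-05), as much as the prednisolone change. In CEM no library held more than 10 CCND2 counts, and no comparison within CEM tested it.

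CCND1 (ENSG00000110092.4_1), the D cyclin of many epithelial tissues and a textbook Wnt target, was nearly silent. All 24 Nalm6-derived libraries had 0 counts apart from 1 untreated knockout library with 1 count. A count of 0 allows up to 3 counts, or 0.0484 to 0.119 CPM depending on the library, and this limit covers counting error only. CEM had 1, 2 and 2 counts untreated, 7, 6 and 3 counts under CHIR-99021, and 3, 0 and 2 counts under prednisolone. The gene was tested in no comparison. The CEM libraries given CHIR-99021 held the highest levels of any group, but without strand their counts were 4, 6 and 3, against 2, 1 and 2 untreated. Over all 33 libraries, the CCND1 count without strand was 226% of the stranded count.

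The kinase CDK4 (ENSG00000135446.17_1) fell under glucocorticoid to nearly the same level whatever the agent or genotype of the Nalm6 cells. Untreated Nalm6 libraries held 238, 237 and 237 CPM, and prednisolone libraries 147, 133 and 138 CPM. Dexamethasone libraries held 139, 140 and 141 CPM, against 232, 238 and 237 CPM in their own set. These groups were fully separated, at -0.80 ± 0.04 and -0.79 ± 0.04 on the log2 scale (edgeR adjusted p = 3.84e-11 and 1.85e-10). In CEM, CDK4 went from 197, 192 and 191 CPM to 158, 157 and 154 CPM under prednisolone, a fall of 0.34 ± 0.03 on the log2 scale (edgeR adjusted p = 4.98e-08). CHIR-99021 moved it little: 255, 255 and 245 CPM in Nalm6 (0.09 ± 0.04, edgeR adjusted p = 0.216) and 205, 206 and 213 CPM in CEM. In Nalm6 it lay above every control but was not called, except without CHIR-99021 replicate 3 (edgeR adjusted p = 0.0196). The CEM difference of 0.12 ± 0.04 was called (edgeR adjusted p = 0.0425) but was lost without any of the 6 libraries in turn, at adjusted p of 0.0647 to 0.16.

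The CDK4 promoter is shown because it holds more copies of the E-box CACGTG than any other member window read here. MYC is a factor known to bind this motif and to switch on CDK4. The 250 bases before the RefSeq start of CDK4 (GRCh38.p14, chr12:57752311-57752560, minus strand, printed 5′ to 3′ along the gene) hold the E-box 3 times, in capitals, starting 216, 196 and 101 bases before the start. The same stretch of CDKN1B (chr12:12717118-12717367, plus strand) is printed as that of the member that rose under glucocorticoid. It holds no E-box, and neither do the windows of CCND3, CDK6, CDKN1A and CDKN2D.
CDK4: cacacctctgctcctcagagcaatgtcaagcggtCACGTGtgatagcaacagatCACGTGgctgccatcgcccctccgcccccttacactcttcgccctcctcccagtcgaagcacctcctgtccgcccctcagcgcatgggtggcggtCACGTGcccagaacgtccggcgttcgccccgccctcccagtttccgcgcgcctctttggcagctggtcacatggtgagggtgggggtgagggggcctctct
CDKN1B: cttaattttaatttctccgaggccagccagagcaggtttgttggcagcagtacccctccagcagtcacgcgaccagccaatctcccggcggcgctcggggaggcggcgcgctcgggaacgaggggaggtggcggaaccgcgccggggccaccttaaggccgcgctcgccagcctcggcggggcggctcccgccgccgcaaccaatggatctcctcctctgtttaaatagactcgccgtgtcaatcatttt

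Windows of this length were at hand for 7 of the 10 members (12 windows, since some genes have several starts). CACGTG, which reads the same on both strands, was in 3 of those 12, namely CDK4 and 2 of the CDKN2C starts, and in 6.34% of all 35116 windows. At least 3 matches occurred in 28 of the 35116 windows. The forkhead motif TGTTTAC (2.98% of all windows), the E2F motifs TTTCGCGC (0.439%) and TTTGGCGC (0.55%) and the palindromic glucocorticoid response element (1 of all windows) were in none of the 12, searched on both strands. The GC box GGGCGG was in 9 of 12 (42.6% of all) and the CCAAT box in 5 of 12 (32.0% of all). A match describes letters only, and no binding was measured.

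MYC itself went from a mean of 738 ± 15.4 to 375 ± 9.77 CPM (SD, n = 3) under prednisolone in Nalm6 and from 857 ± 65.6 to 416 ± 5.19 CPM under dexamethasone. It fell from 760 ± 19.8 to 466 ± 28.4 CPM in the knockout and from 271 ± 6.56 to 158 ± 0.934 CPM in CEM under prednisolone. Under CHIR-99021 in CEM, MYC fell to 182 ± 3.34 CPM, and the higher CDK4 level there was not called when any library was left out. In Nalm6 MYC fell to 629 ± 33.9 CPM (-0.23 ± 0.05, edgeR adjusted p = 0.0245), and CDK4 was not called except without CHIR-99021 replicate 3 (edgeR adjusted p = 0.0196). Under dexamethasone MYC was higher in the knockout than in parental cells, at 597 ± 10.8 CPM (0.53 ± 0.03, edgeR adjusted p = 2.71e-12), while their CDK4 levels overlapped. MYC and CDK4 both fell in the 4 glucocorticoid comparisons. The edgeR adjusted p of the 4 glucocorticoid falls of MYC were 7.75e-13, 1.09e-10, 8.35e-06 and 5.32e-13 in that order, and that of the CHIR-99021 fall in CEM was 4.91e-06. The part of MYC in the CDK4 changes was not tested.

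CDK6 (ENSG00000105810.10_1), the kinase that partners D cyclins in blood cells, was the more abundant of the pair, at 61.7% to 75.9% of their summed level per length in the group means. It stood at 1790, 1722 and 1660 CPM in untreated Nalm6 and at 1123, 1005 and 1009 CPM under prednisolone. Dexamethasone took it from 1674, 1635 and 1566 CPM to 876, 880 and 862 CPM. Both falls left no overlap, at -0.75 ± 0.05 (edgeR adjusted p = 6.16e-10) and -0.93 ± 0.04 (edgeR adjusted p = 1.07e-10). CEM behaved differently: 1961, 1917 and 2022 CPM untreated against 1855, 1900 and 1939 CPM under prednisolone. Those ranges overlapped, with a fall of 0.08 ± 0.03 on the log2 scale (edgeR adjusted p = 0.0134). The call was lost without untreated replicate 3 or prednisolone replicate 1 (adjusted p = 0.0777 and 0.0666). It was also lost with all 33 libraries in a single fit (edgeR adjusted p = 0.228). The difference from the Nalm6 response was 0.68 ± 0.06 (edgeR adjusted p = 3.00e-09), larger than those of CCND3 and CDK4 (0.47 ± 0.05, edgeR adjusted p = 3.20e-07). CHIR-99021 raised CDK6 to 2110, 1996 and 1924 CPM in Nalm6 and to 2288, 2251 and 2105 CPM in CEM. The changes were 0.22 ± 0.05 (edgeR adjusted p = 0.0301) and 0.19 ± 0.04 (edgeR adjusted p = 0.00529). In Nalm6 the call was lost without any library other than CHIR-99021 replicate 3 (adjusted p = 0.0542 to 0.177), and in CEM it was lost with all 33 libraries in a single fit (0.0532).

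The CIP/KIP inhibitors moved in opposite directions under glucocorticoid. CDKN1A (ENSG00000124762.14_1), the p53-induced inhibitor p21, fell, and CDKN1B (ENSG00000111276.12_1), the quiescence inhibitor p27, rose. CDKN1A stood at 114, 109 and 112 CPM in untreated Nalm6 and at 61.0, 61.4 and 65.3 CPM under prednisolone. Its dexamethasone values were 70.4, 70.1 and 73.1 CPM against 139, 150 and 149 CPM. Neither pair of groups overlapped, with log2 fold changes of -0.86 ± 0.04 (edgeR adjusted p = 2.26e-11) and -1.07 ± 0.04 (edgeR adjusted p = 3.25e-11). In CEM the level was low throughout, at 2.06, 2.94 and 2.51 CPM untreated and 1.22, 1.06 and 1.14 CPM under prednisolone. The change of -1.16 ± 0.17 (edgeR adjusted p = 1.85e-05) was not called different from that in Nalm6 (-0.28 ± 0.16, edgeR adjusted p = 0.222). CHIR-99021 raised CDKN1A in Nalm6 to 133, 135 and 133 CPM, a change of 0.26 ± 0.04 (edgeR adjusted p = 0.003). The CEM values were 3.12, 3.13 and 2.70 CPM, overlapping the untreated ones (0.28 ± 0.14, edgeR adjusted p = 0.238).

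CDKN1B stood at 55.8, 55.5 and 57.6 CPM in untreated Nalm6 and at 79.1, 76.5 and 79.6 CPM under prednisolone. In the dexamethasone set it went from 65.0, 61.1 and 62.8 CPM to 91.6, 93.4 and 93.9 CPM. All treated libraries were above all of their controls, at 0.45 ± 0.04 (edgeR adjusted p = 6.23e-08) and 0.52 ± 0.04 (edgeR adjusted p = 8.33e-08). CEM started higher, at 109, 108 and 106 CPM, and prednisolone libraries held 123, 117 and 119 CPM. This rise of 0.12 ± 0.03 (edgeR adjusted p = 0.00444) was smaller than in Nalm6, the difference being -0.31 ± 0.05 (edgeR adjusted p = 6.18e-05), and it was not called with all 33 libraries in a single fit (adjusted p = 0.0914). Under CHIR-99021, CDKN1B fell in CEM to 92.3, 91.1 and 94.4 CPM (-0.20 ± 0.04, edgeR adjusted p = 0.00446). In Nalm6 it was 51.7, 51.2 and 51.1 CPM, below every control but not called (-0.13 ± 0.04, edgeR adjusted p = 0.0713), except without CHIR-99021 replicate 3 (0.0472).

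Set per length, these opposite changes exchanged the leading inhibitor transcript. CDKN1A made up 63.5 ± 0.74% (SD, n = 3) of the CIP/KIP transcripts in untreated Nalm6 and 41.8 ± 0.731% under prednisolone, while CDKN1B went from 34.7 ± 0.466% to 56.9 ± 0.779%. Dexamethasone took CDKN1B from 30.8 ± 1.45% to 57.8 ± 0.433%. In CEM, CDKN1B was already 97.8 ± 0.294% of the total.

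**Figure D3:**
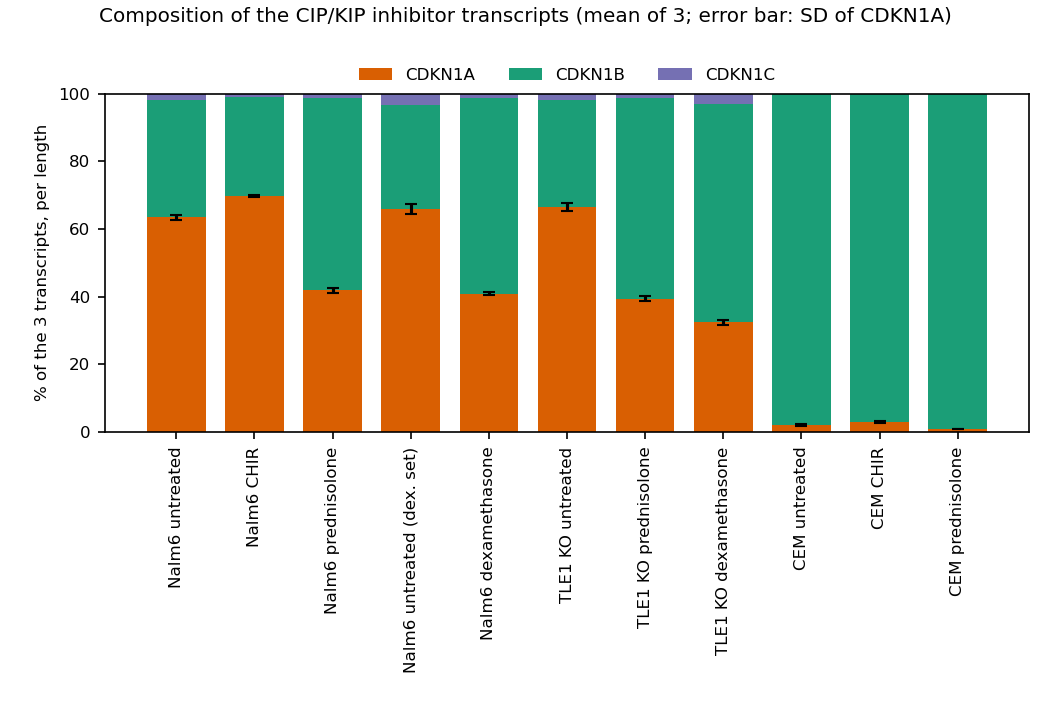
Share of CDKN1A, CDKN1B and CDKN1C in their summed level per length (y axis, percent) in each group (x axis); bars are means of 3 libraries and error bars are the SD of CDKN1A. CDKN1A leads in untreated and CHIR-99021-treated Nalm6-derived groups, CDKN1B leads in all 4 of their glucocorticoid groups, and CEM is almost wholly CDKN1B.

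The ratio of CDKN1B to CCND3 per length sets an inhibitor against the main D cyclin within a library, so that it does not depend on library scaling. It was 0.222 ± 0.00718 (SD, n = 3) in untreated Nalm6, 0.268 ± 0.0106 under CHIR-99021 and 0.531 ± 0.0101 under prednisolone. In the dexamethasone set it went from 0.29 ± 0.0143 to 0.814 ± 0.00765, a 2.81-fold change. In CEM it went from 0.391 ± 0.00517 to 0.56 ± 0.0114 under prednisolone, a 1.43-fold change. The groups in each of these comparisons did not overlap. The untreated Nalm6 sets were 1.30-fold apart in the same ratio, which is less than either glucocorticoid change in Nalm6 and more than the CHIR-99021 change of 1.21-fold.

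**Figure D4:**
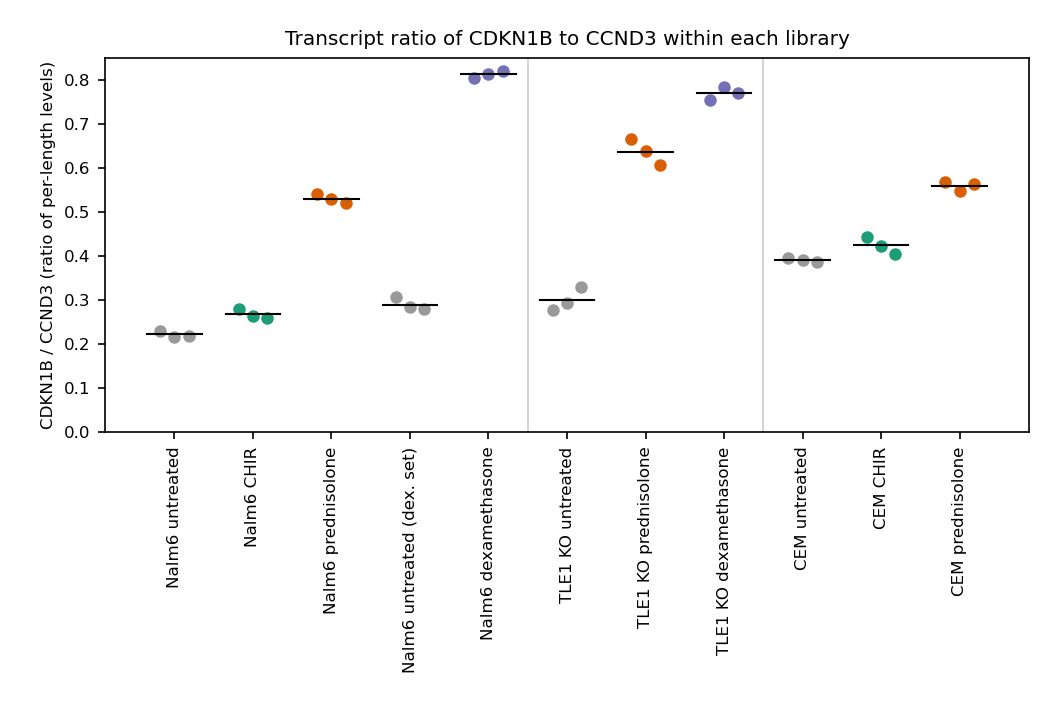
Ratio of CDKN1B to CCND3, both per length (y axis, linear, from 0), in each library (points) and as the mean of 3 (bars) by group (x axis). Glucocorticoid libraries of Nalm6 and the knockout lie between 0.522 and 0.821, above all their untreated libraries (0.217 to 0.33).

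CDKN1C (ENSG00000129757.15_1), the inhibitor p57 and a known glucocorticoid-induced gene in other cell types, was low and fell here. Untreated Nalm6 held 2.13, 2.88 and 2.80 CPM and prednisolone libraries 1.46, 1.61 and 1.60 CPM. Its untreated level was 5.83, 5.69 and 6.86 CPM in the dexamethasone set and 2.08, 1.92 and 1.83 CPM with the drug. The log2 fold changes were -0.75 ± 0.15 (edgeR adjusted p = 4.34e-04) and -1.69 ± 0.11 (edgeR adjusted p = 1.11e-08), with no overlap in either. The treated levels of the sets lay close together, whereas the untreated sets differed by 1.30 ± 0.12 on the log2 scale (edgeR adjusted p = 4.85e-06). CHIR-99021 gave 1.84, 1.58 and 1.84 CPM in Nalm6 (-0.56 ± 0.14, edgeR adjusted p = 0.0389). The call was lost without control 2 or 3 or CHIR-99021 replicate 1 or 2 (adjusted p = 0.161, 0.176, 0.0812 and 0.103) and with the replicate number as a block (0.0641). In CEM no library held more than 10 counts.

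The INK4 inhibitors were set by the line and hardly moved with glucocorticoid in Nalm6. CDKN2C (ENSG00000123080.12_1) stood at 29.4, 30.8 and 29.7 CPM in untreated Nalm6 and at 27.1, 25.5 and 30.0 CPM under prednisolone. CDKN2D (ENSG00000129355.7_1) stood at 9.38, 8.94 and 9.25 CPM and at 9.03, 11.5 and 12.2 CPM. Both pairs overlapped, and the calls (-0.15 ± 0.06, edgeR adjusted p = 0.0428, and 0.24 ± 0.09, edgeR adjusted p = 0.0304) were lost under DESeq2 (adjusted p = 0.0584 and 0.139). Leaving out a library ended the CDKN2C call except for prednisolone replicate 3 and the CDKN2D call except for prednisolone replicate 1 (edgeR adjusted p of at most 0.29 and 0.241). Dexamethasone changed neither by the test, with CDKN2C at 32.2, 32.3 and 32.6 CPM against 32.0, 34.0 and 36.1 CPM. CDKN2D was 10.9, 10.5 and 11.3 CPM there, against 10.2, 9.32 and 9.10 CPM (0.15 ± 0.08, edgeR adjusted p = 0.0924). Without untreated replicate 1 of that set both were called (adjusted p = 0.00393 and 0.0284). CHIR-99021 lowered CDKN2C in Nalm6 to 23.6, 25.7 and 25.7 CPM, below every control (-0.26 ± 0.05, edgeR adjusted p = 0.0149), a call that needed controls 2 and 3 (adjusted p = 0.0987 and 0.0807 without them in turn).

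In CEM both INK4 transcripts were several times more abundant and moved in opposite directions. CDKN2C went from 123, 126 and 123 CPM to 148, 148 and 138 CPM under prednisolone (0.19 ± 0.04, edgeR adjusted p = 2.53e-04). CDKN2D went from 56.4, 57.1 and 59.0 CPM to 50.2, 48.4 and 48.3 CPM (-0.26 ± 0.03, edgeR adjusted p = 8.74e-06). Neither pair overlapped, and both responses were called different from those of Nalm6, by 0.35 ± 0.07 (edgeR adjusted p = 7.91e-04) and -0.50 ± 0.10 (edgeR adjusted p = 2.65e-04). CHIR-99021 left the genes at 122, 119 and 126 CPM and at 56.2, 55.7 and 57.8 CPM. The log2 fold changes were -0.00 ± 0.04 and -0.01 ± 0.04 (edgeR adjusted p = 0.99 and 0.954). The remaining INK4 genes were largely absent: CDKN2B had 0 counts in all 33 libraries, and CDKN2A had at most 1 count in Nalm6-derived libraries and 14 to 39 counts in CEM.

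Untreated, the lines differed in all 9 members tested, 5 higher and 4 lower in CEM than in the untreated Nalm6 dexamethasone set, where 77.5% of genes were called. CDKN2D (2.55 ± 0.06), CDKN2C (1.83 ± 0.05) and CDKN1B (0.73 ± 0.04) were higher in CEM (edgeR adjusted p = 2.10e-13, 8.93e-13 and 3.39e-09). CDKN1A was lower, at 2.06 to 2.94 CPM against 139 to 150 CPM (-5.90 ± 0.08, edgeR adjusted p = 2.34e-15). CCND2 and CDKN1C, at 2 to 10 counts in CEM, were also lower (edgeR adjusted p = 4.34e-11 and 8.31e-11). The main cyclin and the kinases differed less: CCND3 by 0.30 ± 0.04, CDK4 by -0.32 ± 0.04 and CDK6 by 0.24 ± 0.04 (edgeR adjusted p = 5.62e-06, 3.21e-06 and 1.04e-04). The prednisolone response itself differed between the lines in 7 of 9 members, beside 26.9% of genes called, with the values of 6 given above. The seventh, CDKN1C (1.42 ± 0.48, edgeR adjusted p = 0.0285), rests on 3 to 10 counts in CEM and was lost without CEM control 2 or 3 or CEM prednisolone replicate 1 or 3 (adjusted p = 0.125, 0.0602, 0.0578 and 0.0838). Line and any difference in handling between the lines cannot be told apart.

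The knockout comparison asked whether the members stand elsewhere, or respond otherwise, when TLE1 is targeted. Untreated, 5 of 9 members were called (2 higher, 3 lower), where 27.1% of genes were, and 3 were called without any parental control or knockout control 2. CCND2 differed most, with 6, 15 and 10 counts (0.21, 0.46 and 0.32 CPM) in the knockout against 3.97, 3.96 and 3.48 CPM in parental cells (-3.47 ± 0.20, edgeR adjusted p = 4.47e-06). CCND3 was lower, at 384, 380 and 366 CPM (-0.45 ± 0.05, edgeR adjusted p = 1.92e-04), as was CDKN2D, at 7.33, 6.58 and 5.49 CPM (-0.49 ± 0.10, edgeR adjusted p = 0.00696). Neither overlapped the parental libraries. CDKN1A, at 124, 123 and 125 CPM (0.17 ± 0.04, edgeR adjusted p = 0.0192), and CDKN2C, at 31.7, 33.4 and 33.9 CPM (0.16 ± 0.05, edgeR adjusted p = 0.048), were higher by little. Those 2 calls were lost with the replicate number as a block (adjusted p = 0.068 and 0.116). The CDKN1A call was also lost without any parental control or knockout control 2 (0.0509 to 0.117), and the CDKN2C call without any library other than knockout control 1 (0.0583 to 0.172). DESeq2 did not call CDKN2C either (0.0984), nor did edgeR with RLE factors (0.0571), without a filter on low counts (0.12) or with at least 10 counts in every library (0.0557). CDK4 (221, 221 and 240 CPM), CDK6 (1294, 1650 and 1579 CPM), CDKN1B (51.5, 53.9 and 58.5 CPM) and CDKN1C (3.06, 2.84 and 2.66 CPM) were not called.

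Prednisolone moved the knockout in the parental directions for the main members. CCND3 fell to 246, 264 and 267 CPM (-0.58 ± 0.06, edgeR adjusted p = 3.12e-05), and CDK4 to 142, 136 and 129 CPM (-0.78 ± 0.07, edgeR adjusted p = 1.14e-05). CDK6 fell to 965, 967 and 1054 CPM (-0.64 ± 0.09, edgeR adjusted p = 3.23e-04). CDKN1A fell to 55.9, 58.2 and 58.7 CPM (-1.15 ± 0.06, edgeR adjusted p = 1.56e-07) and CDKN1C to 1.03, 1.45 and 1.64 CPM (-1.11 ± 0.18, edgeR adjusted p = 6.71e-04). These are the same cyclin, kinase and inhibitor transcripts that fell in parental cells. CDKN1B rose to 79.4, 81.7 and 78.6 CPM (0.51 ± 0.07, edgeR adjusted p = 1.66e-04). CDKN2C fell to 26.0, 27.1 and 26.5 CPM (-0.36 ± 0.07, edgeR adjusted p = 0.00157). CDKN2D rose to 8.10, 8.97 and 8.93 CPM (0.38 ± 0.12, edgeR adjusted p = 0.0243), a call lost without control 2 or 3 or prednisolone replicate 2 or 3 (adjusted p = 0.0582 to 0.0737).

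Tested directly, the prednisolone response differed between knockout and parental cells in 1 of 9 members, where 3.48% of genes were called. That member was CCND2, which fell in parental cells and stood at 0.68, 0.49 and 0.67 CPM in treated knockout libraries, above all 3 of their controls (0.84 ± 0.33, not called, edgeR adjusted p = 0.0651, but 0.043 without knockout control 2). The difference was 1.55 ± 0.35 (edgeR adjusted p = 0.0196), rests on knockout counts of 6 to 15 in the controls, and was lost in 3 of 12 fits without a library (knockout control 1, knockout prednisolone 1 or 3; adjusted p of at most 0.0657). For CCND3 the difference was 0.25 ± 0.08 (edgeR adjusted p = 0.0876) and for CDKN1A -0.26 ± 0.07 (edgeR adjusted p = 0.0636), and DESeq2 called both (adjusted p = 0.0198 and 0.0245). A p that misses the threshold does not show that the responses were alike.

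Under dexamethasone the knockout has no untreated set of its own, so it was set against parental cells given the same dose: 5 members were higher and 2 lower of 9, where 56.6% of genes were called. CDKN1C was 4.12, 4.23 and 4.37 CPM against 2.08, 1.92 and 1.83 CPM (1.14 ± 0.12, edgeR adjusted p = 1.08e-07). CCND2 was 1.22, 1.34 and 0.92 CPM against 6.36, 6.45 and 5.93 CPM (-2.42 ± 0.14, edgeR adjusted p = 3.00e-12). CDKN1A was lower at 55.2, 53.4 and 55.4 CPM (-0.37 ± 0.04, edgeR adjusted p = 2.03e-08), and CDK6 higher at 1035, 1033 and 1023 CPM (0.25 ± 0.03, edgeR adjusted p = 1.18e-07). CCND3 was 269, 264 and 274 CPM (0.20 ± 0.03, edgeR adjusted p = 6.87e-06) and CDKN1B 98.2, 101 and 102 CPM (0.12 ± 0.03, edgeR adjusted p = 0.00339), both above every parental dexamethasone library. CDKN2C was 34.6, 35.2 and 36.5 CPM (0.14 ± 0.04, edgeR adjusted p = 0.007), but DESeq2 did not call it (0.0502), nor did edgeR without knockout replicate 3 (0.0504). CDK4, at 141, 140 and 143 CPM (0.03 ± 0.03, edgeR adjusted p = 0.477), and CDKN2D, at 11.3, 10.9 and 11.7 CPM (0.07 ± 0.07, edgeR adjusted p = 0.437), overlapped parental cells.

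A dexamethasone response of the knockout was also estimated by subtracting the difference between the untreated Nalm6 sets, which assumes that the knockout sets differ in the same way. On that scale 3 members rose and 5 fell of 9, where 40.0% of genes were called. CDKN1A (-1.61 ± 0.06), CDK4 (-0.73 ± 0.06), CDK6 (-0.51 ± 0.10), CCND3 (-0.31 ± 0.06) and CDKN1C (-0.72 ± 0.18) fell (edgeR adjusted p = 2.29e-11, 1.22e-07, 5.26e-04, 8.04e-04 and 0.00455). CDKN1B (0.67 ± 0.07), CDKN2D (0.71 ± 0.13) and CCND2 (1.02 ± 0.29) rose (edgeR adjusted p = 3.11e-06, 4.22e-04 and 0.00942). The direction of CDKN1C comes from the subtraction alone, since its level in the knockout was 4.24 ± 0.125 CPM (SD, n = 3) under dexamethasone and 2.86 ± 0.197 CPM untreated.

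The partners of the members downstream were read from lists of cell-cycle genes. Cyclin E, cyclin A and CDK2 genes drive the step after cyclin D. Under prednisolone in Nalm6, 1 of 5 tested rose and 4 fell (median log2 fold change -0.51). Those that fell included CDC25A, the phosphatase that activates CDK2 (-0.92 ± 0.04, edgeR adjusted p = 4.03e-12), and CCNE1 (-0.59 ± 0.06, edgeR adjusted p = 1.92e-07). The gene that rose was CCNE2, the more abundant cyclin E transcript in CPM. CCNE2 went from 72.6 ± 2.49 to 88.7 ± 6.43 CPM (SD, n = 3), and CCNE1 from 16.5 ± 0.364 to 11.2 ± 0.677 CPM. No gene of this list rose in the other glucocorticoid comparisons. Under dexamethasone in Nalm6, 4 of 5 fell, and CCNE2 went from 60.6 ± 7.62 to 58.8 ± 0.989 CPM. In the knockout 5 of 5 fell under prednisolone, with CCNE2 at 97.8 ± 18.7 and 77.6 ± 7.23 CPM. In CEM 3 of 6 fell, with CCNE2 at 97.2 ± 4.58 and 92.1 ± 2.33 CPM. Of the RB family, RBL1 fell and RBL2, the pocket protein of quiescent cells, rose by about the same amount under prednisolone in Nalm6 (0.27 ± 0.03), dexamethasone (0.27 ± 0.04), prednisolone in the knockout (0.26 ± 0.06) and prednisolone in CEM (0.27 ± 0.03; edgeR adjusted p = 3.27e-06, 4.98e-05, 0.0062 and 4.67e-06). RB1 itself did not act alike in these comparisons: it rose under prednisolone (0.24 ± 0.04) and dexamethasone (0.19 ± 0.04) in Nalm6, was not called in the knockout (0.16 ± 0.08) and fell in CEM (-0.28 ± 0.03; edgeR adjusted p = 2.35e-05, 9.45e-04, 0.148 and 4.64e-07). RBL1 fell by 0.48 ± 0.04 and 0.58 ± 0.05 on the log2 scale in the Nalm6 comparisons (edgeR adjusted p = 1.13e-08 and 1.11e-07).

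S phase genes fell beside CCND3, CDK4 and CDK6. All 13 of 13 fell under prednisolone in Nalm6 (median -0.83), under dexamethasone (-1.06) and under prednisolone in the knockout (-1.12), and 12 of 13 fell in CEM (-0.25). MCM4, a subunit of the replicative helicase, fell by 1.07 ± 0.05 on the log2 scale under prednisolone in Nalm6 (edgeR adjusted p = 1.39e-11). G2 and M phase genes had medians nearer 0 in Nalm6 and the knockout: 5 of 13 fell and 1 rose under prednisolone in Nalm6 (median -0.07), 11 fell under dexamethasone (-0.28), 9 fell in the knockout (-0.36), and 4 fell and 1 rose in CEM (-0.04). Of the E2F and DP factors, 8 of 10 fell under prednisolone in Nalm6 (median -0.36), 8 fell and 1 rose under dexamethasone (-0.49), 5 of 9 fell in the knockout (-0.43) and 6 of 10 fell in CEM (-0.15). The share of called genes in the whole table, given above for each comparison, is the background of these counts, and the part of cell-cycle phase in the members' changes was not tested.

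**Figure D5:**
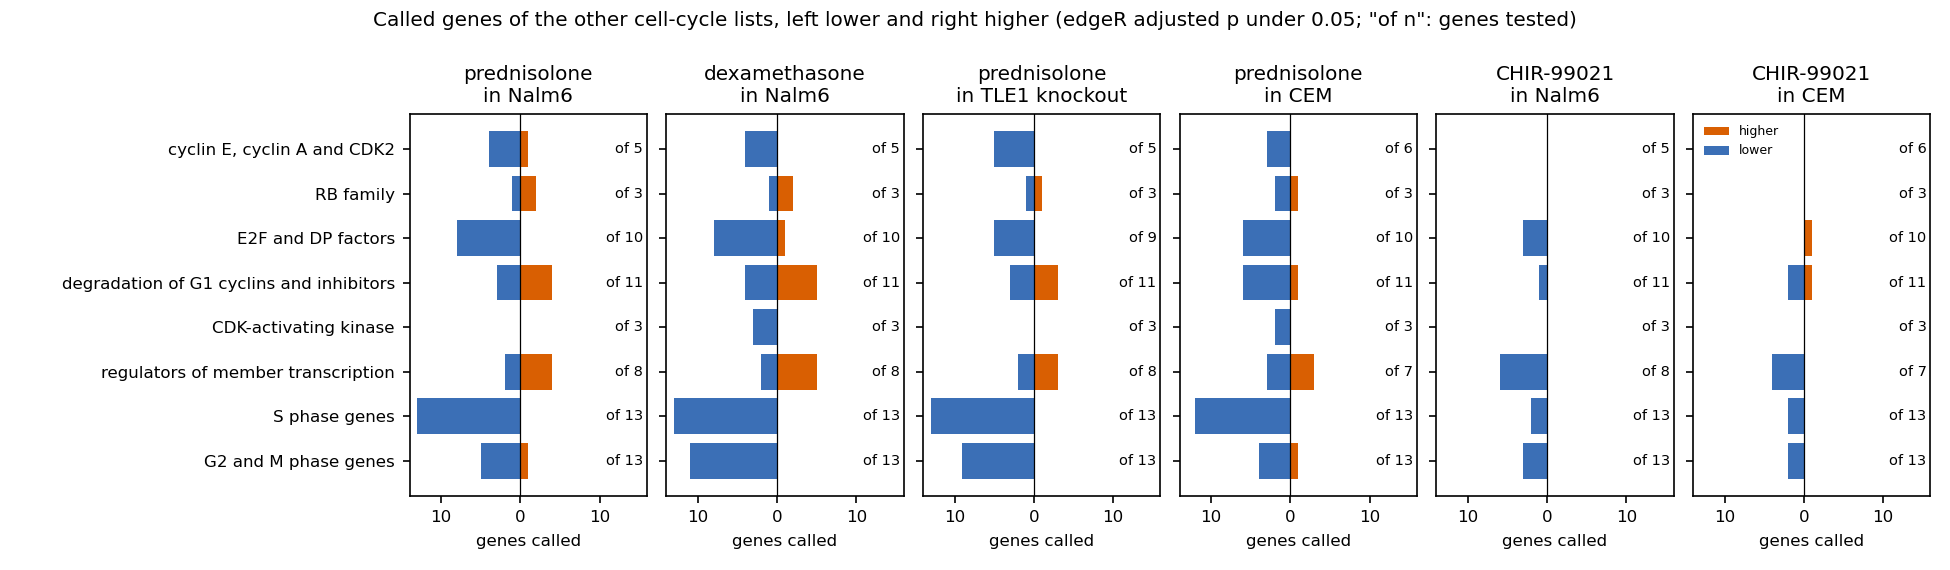
Number of called genes that were lower (bars to the left) or higher (bars to the right) in 8 lists of cell-cycle genes (y axis) in 6 treatment comparisons; "of n" gives the genes tested. The S phase list is wholly or almost wholly lower in the 4 glucocorticoid panels, whereas under CHIR-99021 the list with the most calls is that of regulators of member transcription, all lower.

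Genes that degrade G1 cyclins and inhibitors split. SKP2 and CKS1B, which together direct p27 to the proteasome, fell beside the rise of CDKN1B RNA: SKP2 by 0.89 ± 0.04 and 1.11 ± 0.04 on the log2 scale under prednisolone and dexamethasone in Nalm6 (edgeR adjusted p = 1.70e-11 and 2.46e-11), and CKS1B by 0.74 ± 0.05 and 0.94 ± 0.05 (edgeR adjusted p = 7.74e-10 and 6.97e-10). Over the list of 11, 4 rose and 3 fell under prednisolone and 5 rose and 4 fell under dexamethasone. In the knockout 3 rose and 3 fell, and in CEM 1 rose and 6 fell. The 3 CDK-activating kinase genes, which phosphorylate CDK4 and CDK6, all fell under dexamethasone in Nalm6 (median -0.22), and 2 of 3 fell under prednisolone in CEM (-0.16). Under prednisolone their medians were 0.07 in Nalm6 and 0.00 in the knockout, with edgeR adjusted p of 0.204 to 0.384 and 0.197 to 0.977.

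Regulators of member transcription included MYC, described above, and FOXO factors, which are known to switch on CDKN1B. FOXO1 rose from 83.1 ± 1.58 to 132 ± 1.89 CPM (SD, n = 3) under prednisolone in Nalm6 (0.64 ± 0.04, edgeR adjusted p = 2.09e-10). It stood at 74.2 ± 4.14 CPM in the untreated dexamethasone set and at 107 ± 0.517 CPM with the drug. The knockout held 83.0 ± 7.05 CPM of FOXO1 untreated, 110 ± 7.18 CPM under prednisolone and 85.9 ± 2.59 CPM under dexamethasone. Its CDKN1B level under dexamethasone was 100 ± 2.03 CPM. Untreated CEM had 0.176 ± 0.0665 CPM of FOXO1. The part of FOXO factors in the CDKN1B changes was not tested. Over the list, 4 of 8 rose and 2 fell under prednisolone in Nalm6, 5 rose and 2 fell under dexamethasone, 3 rose and 2 fell in the knockout, and 3 rose and 3 fell of 7 in CEM. CHIR-99021 lowered 6 of 8 in Nalm6, among them FOXO4 (-0.40 ± 0.07, edgeR adjusted p = 0.00773) and FOXO1 (-0.38 ± 0.04, edgeR adjusted p = 9.52e-04). In CEM it lowered 4 of 7, with MYC at -0.55 ± 0.04 (edgeR adjusted p = 4.91e-06) and FOXO4 at -0.45 ± 0.06 (edgeR adjusted p = 5.27e-04).

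Among the E2F and DP factors of the knockout, TFDP1, which encodes the DP1 partner of E2F proteins, stood apart. It had 3 counts in each untreated and each prednisolone library of the knockout and 1 to 2 counts in each dexamethasone library, against 1144 to 1474 counts in untreated Nalm6. TFDP2, its paralog, was higher in the untreated knockout (0.45 ± 0.05, edgeR adjusted p = 1.27e-04). The near absence of TFDP1 moves with the genotype in every knockout result above, and its part in them was not tested.

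Across the means of the 8 Nalm6-derived groups, CCND3, CDK4, CDK6 and CDKN1A formed a block with CDKN1B opposite to it. These groups divide into glucocorticoid-treated and other groups. Genes called above as moving with glucocorticoid therefore correlate by design, and these r add no separate evidence. CDK4 correlated with CDK6 (Pearson r = 0.97), CDKN1A (0.97) and CCND3 (0.91), and CDKN1B correlated negatively with CDK4 (-0.92), CDK6 (-0.92) and CCND3 (-0.85), on log2 CPM over 8 points that come from 1 parental line and its edited derivative and whose depths differ (25292579 to 61930057 counts per library). CDKN2C, CDKN1C and CCND2 stood outside this block, with r of -0.03, 0.37 and 0.23 to CDK4, and CDKN2D had -0.61. CDKN2D had r of 0.76 to CDKN1B, and CDKN1C had 0.80 to CDKN2C. The genes most like each member on the same measure, of 12454 compared, were CENPQ for CCND3 (r = 0.988), KHK for CDK4 (0.998), CCT4 for CDK6 (0.999), TUBA1B for CDKN1A (0.995), OSER1-DT for CDKN1B (0.995), MAST1 for CDKN2C (0.956) and CRYZL1 for CDKN2D (0.971).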

How the data were processed

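RNA was sequenced in 33 cell-line libraries. The authors deposited unnormalized counts of reads for each gene, laid out as STAR does; per the submitters' processing notes, Bowtie2, DESeq2 and hg19 were used, with no roles given, and the annotation is not given in the sources used here. The stranded column 4 was used, since it held 12.3 to 15.3 times the counts of column 3. Rows of totals (unmapped 2.84% to 11.2%, no feature 18.4% to 32.7%, multimapping 4.83% to 7.55%, ambiguous 4.70% to 7.45%) stayed out of library sizes and tests. Without strand, CDK4 had 54.0% and CCND1 had 226% of its stranded count. Replicates differed by more than sampling noise (chi-square per degree of freedom 1.85 to 43.7), and none were merged. The highest values were those of Nalm6 CHIR-99021 replicate 3 against replicates 1 and 2 (42.1 and 43.7). Replicates 1 and 2 of that group stood at 5.77 to each other.

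Each of 13 comparisons was fitted on its own groups with edgeR 4.0.16 (R 4.3.3): filterByExpr, TMM, quasi-likelihood F test and Benjamini-Hochberg adjustment over all genes tested, called at 0.05. SE is the absolute log2 fold change divided by the square root of F. Levels per length used merged exon lengths of GENCODE on GRCh38, not the build of the files, and served only to compare genes. Promoter sequences are RefSeq's (GRCh38.p14), without bases after the start. Scripts were tested on simulated data. Alternatives were DESeq2 1.42.0, RLE factors, all genes kept, a minimum of 10 counts in each library, a replicate block, the unstranded column, all libraries in a single fit and leaving out each library.

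The members and lists were chosen with earlier results of these data known. All members were named; of each list, at most the 2 called genes with the largest change and an average log2 CPM of at least 1, plus TLE1, TSC22D3 and, for each member with a mean of at least 5 CPM in Nalm6-derived libraries, its most similar genes. Values of CCNE2 and FOXO3, and those of MYC, FOXO1, FOXO4, RB1, RBL1 and TFDP1 in further comparisons, were chosen after their values were seen.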

Additional observations from a re-analysis of the deposited data

Results flagged for a closer look

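The prednisolone response of 8 member values differed between groups by a test of the difference itself (edgeR interaction term, adjusted p under 0.05). Knockout minus parental, CCND2 differed by 1.55 on the log2 scale. CEM minus Nalm6, with doses of 10 and 5 µM, CCND3 differed by 0.43, CDK4 by 0.47, CDK6 by 0.68 and CDKN2C by 0.35, while CDKN1B differed by -0.31 and CDKN2D by -0.50, beside 26.9% of all genes called. CDKN1C differed by 1.42 (edgeR adjusted p = 0.0285), but CEM held 3 to 10 untreated and 8 to 9 treated counts, so that value depends on the prior count, and it was lost in 4 of 12 fits without a library.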

How the results depend on the processing

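The falls of CCND3, CDK4, CDK6 and CDKN1A and the rise of CDKN1B under prednisolone or dexamethasone in Nalm6 and under prednisolone in the knockout were called under every alternative run. Members called moved past 1.5 times in the untreated knockout (3 with at least 10 counts in every library, 3 with a replicate block), in the knockout minus parental response (3 under DESeq2, 3 with all 33 libraries in a single fit) and under CHIR-99021 in CEM (2 in the single fit). Genes called under CHIR-99021 in Nalm6 were 1425, but 2320 without a filter and 925 with a replicate block; for knockout minus parental they were 624, but 981 without a filter and 1277 in the single fit. Without a library in turn, members called ran from 2 to 7 (CHIR-99021 in Nalm6), 3 to 5 (untreated knockout) and 0 to 2 (knockout minus parental), and genes called from 409 to 2708, 2804 to 6732 and 361 to 1852, and from 1001 to 1948 for CHIR-99021 in CEM. The lowest gene counts came without Nalm6 control 3, Nalm6 control 1 (both knockout comparisons) and CEM CHIR-99021 replicate 2, with each other Nalm6 or CEM control of these comparisons, and Nalm6 CHIR-99021 replicate 1 (820), also lowering them past 1.5 times; the highest came without Nalm6 CHIR-99021 replicate 3 and knockout control 3. Members called were 0 without knockout control 1 or knockout prednisolone replicate 1 or 3, and 2 without knockout control 3 or Nalm6 prednisolone replicate 2. Differences near 0 that were not called changed sign: CCND2 under CHIR-99021 in Nalm6 (-0.0034 without a filter, -0.0046 with a replicate block, -1.70e-05 in the single fit, -0.056 to 0.099 without a library), CDKN1B in the untreated knockout (0.0064 unstranded, -0.078 to 0.032 without a library), CDK4 in knockout minus parental (-0.017 to 0.082 without a library), CDKN2C under CHIR-99021 in CEM (0.0034 without a filter, 0.0073 unstranded, 7.39e-04 under DESeq2, 0.0016 in the single fit, -0.023 to 0.022 without a library), CDKN2D there (0.0016 unstranded, -0.022 to 0.013 without a library) and CDK6 between the untreated sets (0.036 unstranded, 0.0022 in the single fit, -0.0496 to 0.0068 without a library). The causes were not tested. Replicate numbers did not pair libraries (r of -0.083 to 0.082 over 30 pairs, 9 of 30 best with their own number). Depth limits CCND1 everywhere, CCND2 and CDKN1C in CEM and CCND2 in the knockout.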
